A study of Mus musculus with 12 samples.

Results

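The genes described here encode 44 lysosomal proteins, taken by gene symbol from a named list. The list holds acid hydrolases with their activator proteins, proteins of the lysosomal membrane and Tfeb. All 44 symbols were present among the 12199 genes of the count table, and all 44 were among the 12175 genes that passed the filter on low counts. By role they comprised 10 cathepsins and other proteases, 10 enzymes and activators of glycosphingolipid and sphingolipid breakdown, 7 enzymes of glycosaminoglycan breakdown, 8 other hydrolases and lipid-handling proteins, 8 membrane proteins and the transcription factor Tfeb.

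RNA-Seq was performed on whole BM cells, labelled whole bone marrow mononuclear cells, from C57BL/6 mice of 4 genotypes. WT mice carried none of the mutations and came from a core facility. DF mice carried 1 Flt3 ITD allele (Flt3 ITD/+, an activating internal tandem duplication in a cytokine receptor) and 1 conditional Dnmt3a allele with MxCre (Dnmt3aFlox/+:MxCre). TF mice were Tet2+/- and Flt3ITD/+, and TFD mice joined Tet2+/-, Flt3ITD/+, Dnmt3aFlox/+ and MxCre. All mice, WT included, received poly(I:C), which induces Cre from the interferon-responsive Mx promoter, at 8 to 10 weeks of age and were analyzed 8 to 9 weeks later. The comparisons ask how far gene expression in the BM of the double and triple mutants departed from WT and from each other. WT, DF and TF each had 3 libraries and TFD had 2, because the third TFD library was not analysed here. The libraries are numbered within each genotype, and p-values measure the spread between these libraries.

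Lysosomes are acidic compartments in which macromolecules taken up by endocytosis, phagocytosis or autophagy are broken down. Cathepsins cut proteins, exoglycosidases and their saposin or GM2 activator partners remove sugars from glycosphingolipids one at a time, and a chain of sulfatases and glycosidases dismantles glycosaminoglycans. Highly glycosylated membrane proteins such as Lamp1 and Lamp2 line the inner face of the lysosome, and monocytes and macrophages are rich in lysosomes. Tfeb is a basic helix-loop-helix transcription factor that binds an E-box type element, the CLEAR motif, near the start sites of many lysosomal genes.

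Because Tfeb is among the genes, the stretches of promoter that hold the motif are shown for some of the members whose levels are described below. RefSeq promoter windows of 300 bases, from 250 before to 50 after a start site (build GRCm38.p6), were matched for 39 of the 44 genes and gave 45 windows. Ctsb, Ctsh, Asah1, Galns and Npc1 had no entry. The letters searched were TCACGTG, read on either strand (CACGTGA on the other), which contain the palindrome CACGTG. They were present in 12 of 45 windows (26.7%), against 5.99% of the 11759 windows of tested genes and 3.77% of all 32851 windows. The 12 genes were Arsa, Cln3, Ctsa, Ctsd, Gaa, Gla, Glb1, Lamp1, Lgmn, Mcoln1, Naglu and Sgsh. Each sequence below is written 5′ to 3′ on the strand of the gene, with the motif in capitals. Lamp1, Naglu and Glb1 rose in each mutant genotype, whereas Mcoln1 and Ctsd did not pass the test in any. Under some alternatives Mcoln1 passed it as higher in TF, and Ctsd as lower in TF and in TFD. The Lamp1 stretch (chr8:13159061-13159160, plus strand) holds 4 matches, whose inner CACGTG letters begin 61, 45, 28 and 15 bases before the RefSeq start site. The exons counted for Lamp1 begin upstream of that site, within the stretch shown, at the gene start given below.
Lamp1: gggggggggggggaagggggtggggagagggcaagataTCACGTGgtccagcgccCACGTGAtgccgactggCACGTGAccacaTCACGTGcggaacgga
Naglu, at chr11:101069994-101070093 on the plus strand, holds 1 match.
Naglu: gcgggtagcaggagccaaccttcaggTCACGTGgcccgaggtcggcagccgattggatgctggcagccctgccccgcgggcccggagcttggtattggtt
Glb1, at chr9:114400978-114401077 on the plus strand, also holds 1.
Glb1: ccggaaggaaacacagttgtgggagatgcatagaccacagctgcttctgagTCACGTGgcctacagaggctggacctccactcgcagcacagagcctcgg
Mcoln1, at chr8:3500419-3500518 on the plus strand, holds 2, the second with the motif on both strands.
Mcoln1: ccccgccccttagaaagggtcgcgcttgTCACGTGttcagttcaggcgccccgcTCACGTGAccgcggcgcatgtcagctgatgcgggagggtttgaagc
Ctsd, at chr7:142387828-142387937 on the minus strand, holds the motif on both strands in the stretch shown.
Ctsd: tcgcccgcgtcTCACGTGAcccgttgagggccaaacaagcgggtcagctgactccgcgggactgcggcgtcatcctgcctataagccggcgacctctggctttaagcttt

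A second set of letters, GAGGAAGT (ACTTCCTC on the other strand), an element of the kind bound by the myeloid ETS factor PU.1, was present in 4 of 45 windows (8.89%) and in 3.44% of the windows of tested genes. Its holders were Ctsc, Ctss, Gla and Gusb. In Ctss it lay at the start site, at chr3:95526762-95526791 on the plus strand.
Ctss: aatgaaaccgaaatgaaagttcACTTCCTC
Of the 12 genes with TCACGTG, 7 were higher than WT in each mutant genotype and 4 never passed the test, against 16 and 6 of the 27 matched genes without it. A match describes these letters in this window and does not show a binding site.

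Library totals ran from 8274153 to 15900904 reads assigned to genes. The lowest count of any member in any library was 66 (Naglu) and the highest 41977 (Psap). Summed over all its exons, Tet2 ranged from 148 to 169 CPM (counts scaled to a fixed library size) in WT, 196 to 246 in DF, 136 to 205 in TF and 163 to 209 in TFD. The same sum for Dnmt3a ranged from 30.9 to 57.8 CPM in WT, 38.0 to 46.4 in DF, 57.7 to 86.2 in TF and 54.4 to 58.5 in TFD, so a gene-level count does not check the loss of 1 allele. WT replicate 3, TF replicate 3 and TFD replicate 2 held over 10000 Xist reads and nearly no Ddx3y reads, whereas the other 8 libraries held few Xist reads. Both sexes were therefore present in WT, TF and TFD, and each call of a member that was lost without those 3 libraries is named below. TF replicate 3 also stood apart in erythroid markers, at a summed 1435 CPM for the 8 genes tested, against 543 and 658 CPM in the other two TF libraries. It was likewise above them in B cell markers (92.6 CPM, against 23.5 and 26.1), T cell markers (58.9 CPM, against 27.3 and 24.9), plasmacytoid dendritic cell markers (507 CPM, against 262 and 204) and tissue macrophage markers (596 CPM, against 446 and 382). The pair of TFD libraries differed more over all genes than any other pair of one genotype, with a chi-square per degree of freedom of 64.8, against 10.2 to 31.7. TFD replicates 1 and 2 stood at a summed 45501 and 22556 CPM of maturing neutrophil markers, 121 and 36.5 CPM of megakaryocyte and platelet markers, and 401 and 572 CPM of tissue macrophage markers. Ctsd, Galns, Arsb and Tfeb differed between the same TFD libraries, as given below, and the part of these cells in that was not tested.

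Lysosomal transcripts took a larger share of all gene counts in every mutant library than in any WT library. The 44 genes held 0.544%, 0.493% and 0.495% of counts in the WT libraries. They held 0.889%, 0.822% and 0.788% in DF, 0.923%, 0.882% and 0.911% in TF, and 0.928% and 0.942% in TFD. The mutant libraries did not overlap with WT, and the 3 DF libraries spread down to the lowest mutant share. A large part of the rise came from Psap, at a mean of 853 CPM in WT and 2240, 2473 and 2836 CPM in DF, TF and TFD. The mean sum of the 44 was 5025 CPM in WT and 8706, 8913 and 9162 CPM in the same order. In bulk marrow, more cells of a type and more RNA per cell cannot be told apart, nor can fewer cells and less RNA per cell.

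**Figure D1:**
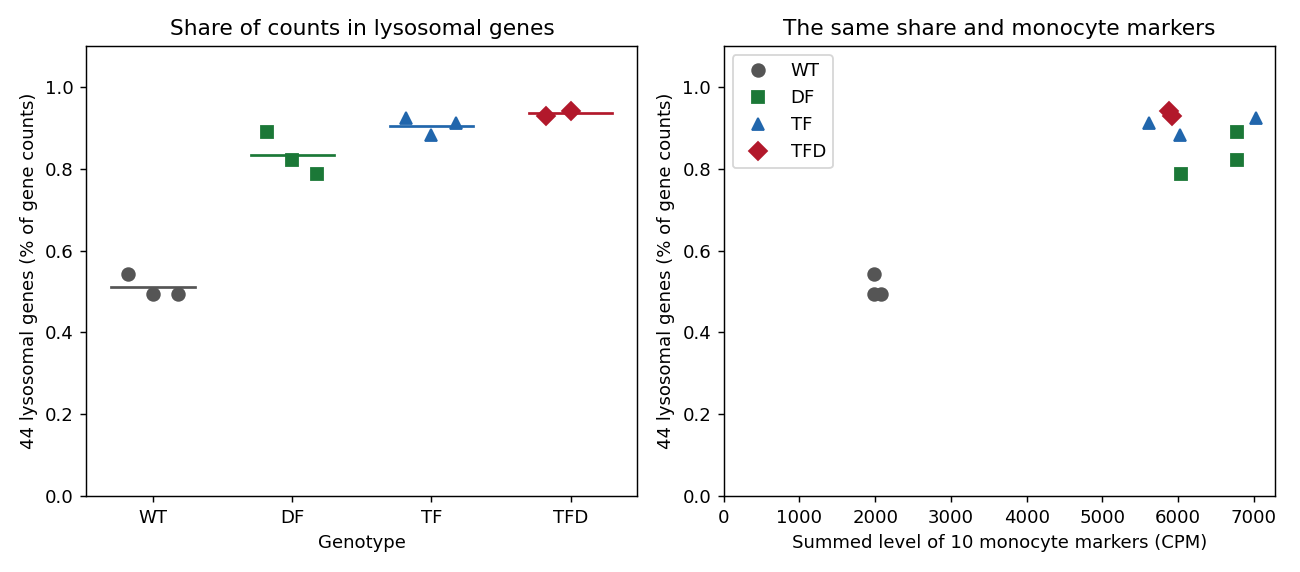
Share of gene counts held by the 44 lysosomal genes in each library by genotype (left, horizontal lines are group means), and the same share against the summed level in CPM of 10 monocyte markers (right). WT libraries lie between 0.493% and 0.544% and between 1988 and 2075 CPM of monocyte markers, and mutant libraries lie between 0.788% and 0.942% and between 5610 and 7023 CPM.

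Gene by gene, 31 of the 44 members were higher in DF than in WT and 0 were lower at an adjusted p under 0.05 in edgeR's quasi-likelihood test with Benjamini-Hochberg adjustment over all genes tested, whereas 21% of all genes were called higher and 16.6% lower. In TF, 29 members were higher and 1 was lower, against 19% and 15.6% of all genes. In TFD, 28 were higher and 0 were lower, against 14.7% and 11.6%. An unadjusted p under 0.05, in either direction, was reached by 47.3%, 45.3% and 38% of all genes in DF, TF and TFD. Among members, 32, 34 and 35 reached it, and of these 0, 3 (Ctsd, Galc and Cd63) and 2 (Ctsd and Cd63) were lower. DESeq2 called 0, 2 and 1 members lower. The 3 comparisons share the WT libraries. Higher in each of the 3 were 27 of 44 members (61.4%), against 11.1% of all genes. In 29 members (65.9%), every mutant library exceeded every WT library in CPM, against 16% of all genes, and in 0 members did every mutant library lie below, against 11.8%. The median log2 fold change of the 44 was 0.63 in DF, 0.57 in TF and 0.57 in TFD, where the median over all genes tested was 0.05, 0.02 and 0.01. Changes were mostly moderate: 9 members in DF, 10 in TF and 7 in TFD were both called and at least 2-fold higher, against 5.45%, 6.23% and 5.79% of all genes, and 0 were called and at least 2-fold lower, against 7.14%, 4.74% and 5.3%. Over all genes in DF versus WT, 55.9% of calls were higher, and 42.3% when libraries were scaled by their totals alone, a change that left 0 members lower.

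**Figure D2:**
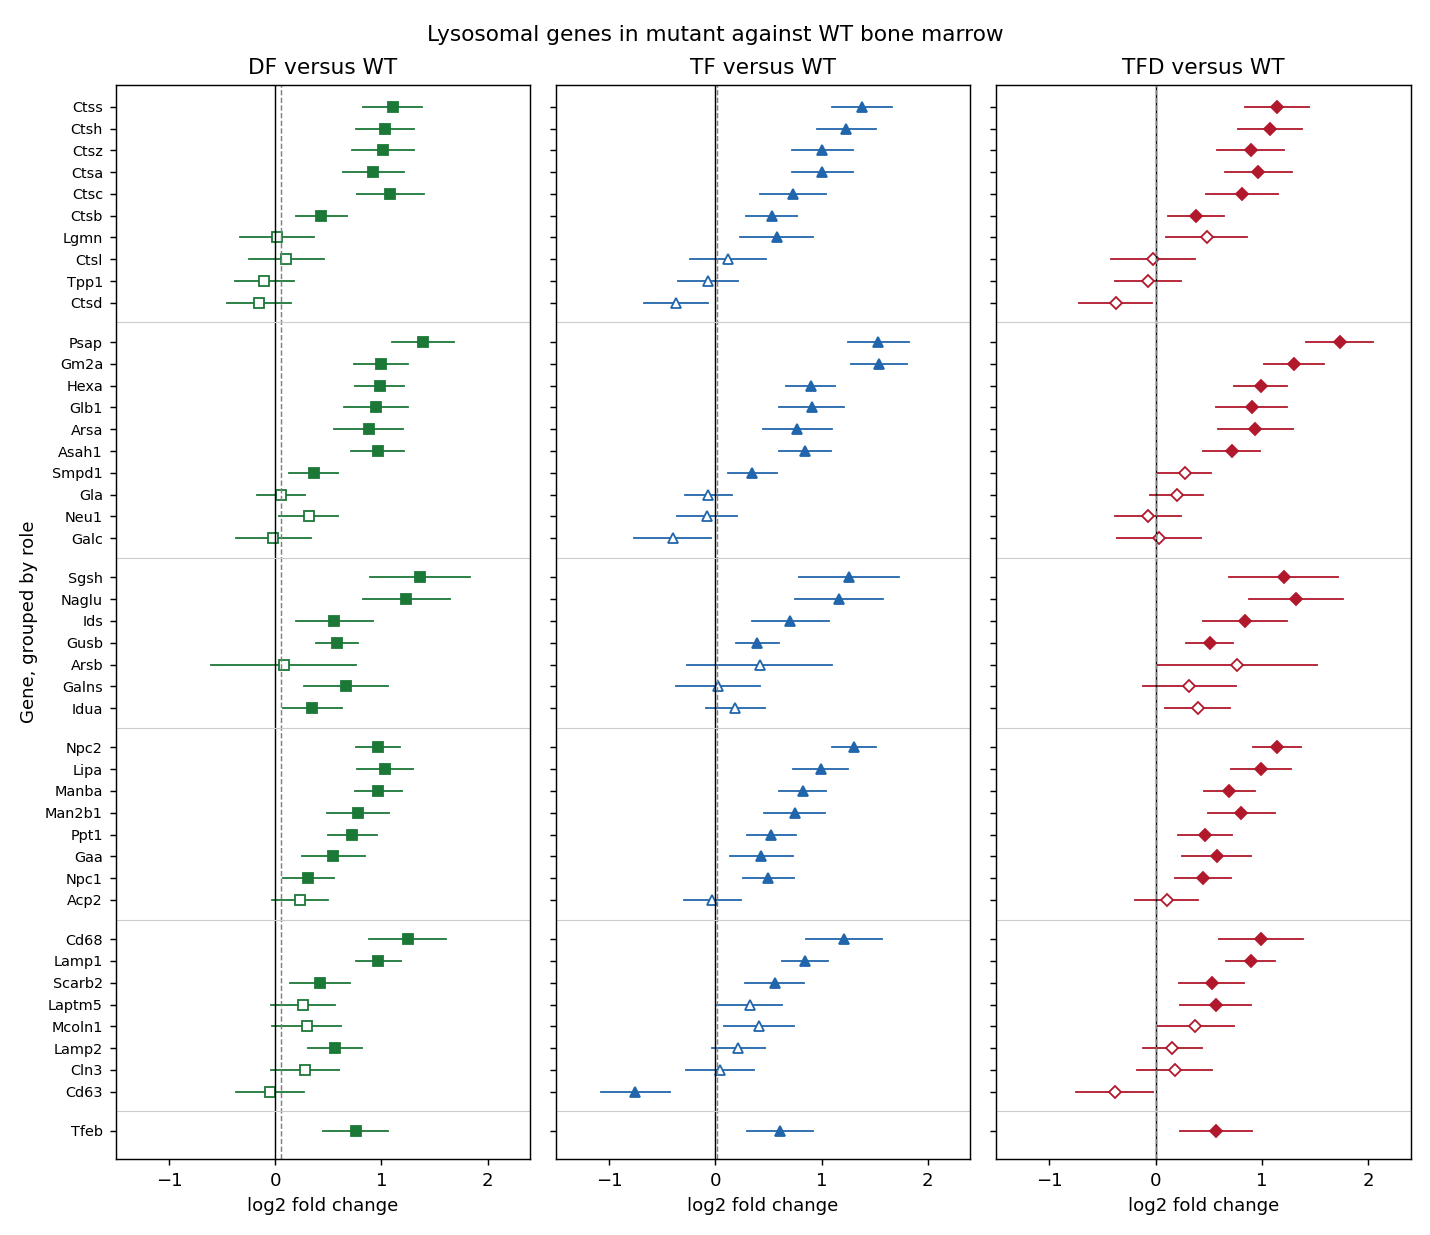
Log2 fold change against WT of each of the 44 lysosomal genes, grouped by role, in DF, TF and TFD. Points are edgeR estimates, horizontal lines are 95% intervals, filled points passed an adjusted p under 0.05, the solid vertical line is 0 and the dashed one the median of all genes. Filled points lie to the right of 0 except Cd63 in TF, at -0.75.

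Among the cathepsins and other proteases, 6 of 10 rose in each mutant genotype, and Lgmn rose in TF and was not called in DF or TFD. On the log2 scale, class medians of 0.68, 0.66 and 0.65 were found for DF, TF and TFD. The rising 6 were Ctss, Ctsh, Ctsz, Ctsa, Ctsc and Ctsb. Ctsl, Tpp1 and Ctsd passed the test in none.

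Ctss, at chr3:95526786-95556405 (mm10), encodes cathepsin S, the cysteine protease that trims the invariant chain of MHC class II in antigen-presenting cells. Its level was 194, 216 and 195 CPM in WT, 488, 440 and 375 CPM in DF, 558, 458 and 556 CPM in TF, and 415 and 476 CPM in TFD. The lowest mutant library was well above the highest WT library. The log2 fold change was 1.11 ± 0.13 (SE) in DF, 1.38 ± 0.13 in TF and 1.14 ± 0.14 in TFD, with adjusted p of 4.92e-05, 1.34e-05 and 0.000117. Ctsh (chr9:90054267-90076095), which encodes the aminopeptidase cathepsin H, was at 116, 135 and 120 CPM in WT, 265, 257 and 237 CPM in DF, 295, 235 and 340 CPM in TF, and 254 and 268 CPM in TFD. Again the mutant libraries did not overlap with WT, and the log2 fold changes were 1.03 ± 0.13, 1.23 ± 0.13 and 1.08 ± 0.14 (adjusted p = 7.4e-05, 2.74e-05 and 0.000162).

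Ctsz (chr2:174427494-174438992), which encodes the carboxypeptidase cathepsin Z, was at 103, 84.4 and 90.9 CPM in WT, 217, 194 and 152 CPM in DF, 182, 172 and 207 CPM in TF, and 172 and 174 CPM in TFD. Ctsa (chr2:164832872-164841032) encodes the protective protein that holds the sialidase and the β-galactosidase in a stable complex. Its level was 106, 80.3 and 90.0 CPM in WT, 201, 166 and 160 CPM in DF, 201, 164 and 192 CPM in TF, and 194 and 168 CPM in TFD. For both genes, every mutant library lay above WT, and log2 fold changes ranged from 0.90 to 1.01 (adjusted p between 0.00012 and 0.000846). Exons of Ctsa share 13.7% of their bases with Pltp and 8.96% with Neurl2 on the opposite strand, and whether counting used the strand is not given in the sources used here.

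Ctsc, whose product cathepsin C activates the serine proteases of neutrophil granules, rose by 1.08, 0.73 and 0.81 on the log2 scale in DF, TF and TFD. Summed early granulocyte markers, among them Elane, Prtn3 and Ctsg, lay between 4731 and 6550 CPM in DF, 2782 and 4540 CPM in TF, and 3977 and 5785 CPM in TFD, against 3019 to 3183 CPM in WT. Of these 6 markers, 5 were called higher in DF, 1 in TF and 2 in TFD, and their part in the result for Ctsc was not tested. Ctsb, the abundant endopeptidase cathepsin B, rose less, by 0.44 ± 0.11 in DF, 0.53 ± 0.11 in TF and 0.38 ± 0.12 in TFD (adjusted p = 0.00809, 0.00285 and 0.0359). The call of Ctsb in TFD was lost when any WT library, DF replicate 2, TF replicate 1 or TFD replicate 1 was left out and when only TFD and WT were fitted, and without TFD replicate 1 the value was 0.24 (adjusted p = 0.26). Ctsb exons share 16.3% of their bases with Fdft1 on the opposite strand. Lgmn, the asparaginyl endopeptidase legumain that processes other cathepsins, rose by 0.58 ± 0.16 in TF (adjusted p = 0.0145), and the values were 0.02 in DF and 0.48 in TFD. Without WT replicate 2 or without the high-Xist libraries, the call in TF was lost, with an adjusted p of up to 0.0939.

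Ctsd, the aspartic protease cathepsin D, was chosen for display after its values were seen, because it did not follow the other abundant cathepsins. It was at 507, 491 and 462 CPM in WT, 423, 416 and 473 CPM in DF, 372, 393 and 364 CPM in TF, and 454 and 296 CPM in TFD. DF overlapped with WT, whereas the TF and TFD libraries lay below it. The log2 fold change was -0.15 ± 0.14 in DF, -0.37 ± 0.14 in TF and -0.37 ± 0.16 in TFD (adjusted p = 0.406, 0.0574 and 0.1). The value in TFD rested on single libraries, at -0.71 without TFD replicate 1 (adjusted p = 0.00554) and -0.09 without TFD replicate 2 (adjusted p = 0.672). DESeq2 called Ctsd lower in both TF and TFD (adjusted p = 0.0187 and 0.046), and over all alternatives the adjusted p ran from 0.0116 to 0.139 in TF and from 0.00554 to 0.672 in TFD. In the GENCODE M21 annotation, 41.4% of the exon bases of Ctsd also belong to Gm49369 on the same strand, so its counts are uncertain. On a per-length scale (RPKM, which divides CPM by exon length in kilobases), mean levels in WT ran in the order Ctsd at 249, Ctss at 148, Ctsh at 76.1, Ctsb at 68.1 and Ctsz at 66.7. In TF, Ctss stood at 385 RPKM and Ctsd at 193 RPKM, so that the order of the leading pair was the opposite of that in WT.

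**Figure D3:**
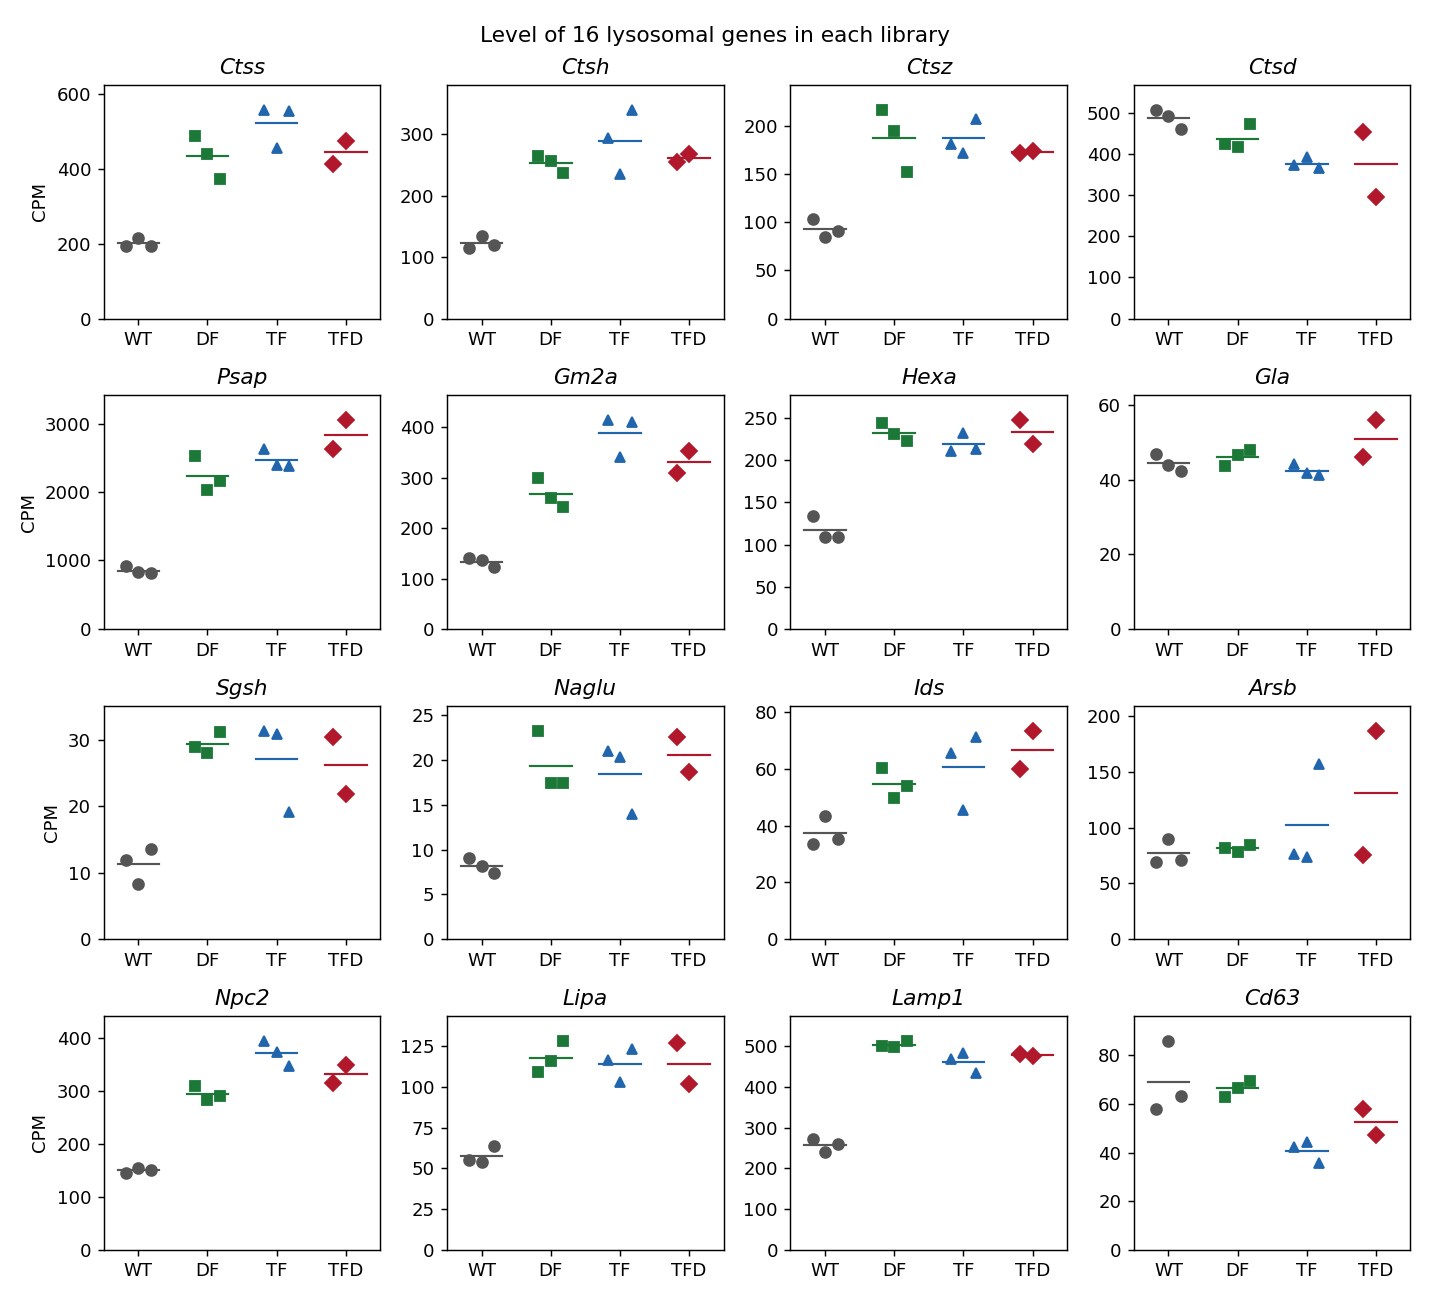
CPM of 16 lysosomal genes in each library, with horizontal lines at the group means and axes that start at 0. WT and mutant libraries do not overlap for Ctss, Ctsh, Ctsz, Psap, Gm2a, Hexa, Sgsh, Naglu, Ids, Npc2, Lipa and Lamp1, whereas they overlap for Gla, Ctsd, Arsb and Cd63, and TF replicate 3 and TFD replicate 2 stand apart for Arsb.

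The glycosphingolipid and sphingolipid class had a median of 0.91 on the log2 scale in DF and 0.81 in both TF and TFD, the highest of the classes over all libraries of a genotype but not in each single library. Against the WT mean, its median was 0.66 in TF replicate 3, below the proteases at 0.86, and 0.69 in TFD replicate 2, below the glycosaminoglycan enzymes at 0.98. In each mutant genotype, 6 of 10 members rose: Psap, Gm2a, Hexa, Glb1, Arsa and Asah1. The members that cleave or present gangliosides GM1 and GM2 (Glb1, Hexa and Gm2a) were among them, whereas Gla, Neu1 and Galc passed the test in none.

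Psap (chr10:60277628-60302600), the precursor of saposins A to D that lift sphingolipids out of membranes for their hydrolases, was the most abundant member per length in every genotype. It stood at 913, 833 and 814 CPM in WT, 2524, 2028 and 2167 CPM in DF, 2630, 2401 and 2387 CPM in TF, and 2625 and 3048 CPM in TFD. The lowest mutant library was at more than double the highest WT library. Its log2 fold change was 1.39 ± 0.13 in DF, 1.53 ± 0.13 in TF and 1.73 ± 0.15 in TFD (adjusted p = 1.77e-05, 8.11e-06 and 8.74e-06), the highest of the 44 in DF and in TFD. DF and TFD differed by -0.34 (95% interval -0.66 to -0.03, adjusted p = 0.315) and TF and TFD by -0.20 (-0.51 to 0.12, adjusted p = 0.75), so an order among the mutants was not established.

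Gm2a (chr11:55097985-55113028) encodes the GM2 activator that presents ganglioside GM2 to β-hexosaminidase. It was at 141, 138 and 122 CPM in WT, 299, 260 and 242 CPM in DF, 414, 342 and 411 CPM in TF, and 309 and 352 CPM in TFD. DF and TF did not overlap, and TFD reached into the range of TF. The log2 fold change was 1.0 ± 0.12 in DF, 1.54 ± 0.12 in TF and 1.31 ± 0.13 in TFD (adjusted p = 5.84e-05, 3.56e-06 and 2.69e-05). Hexa (chr9:59539667-59565105), the α subunit of that hexosaminidase, was at 134, 110 and 109 CPM in WT, 244, 231 and 223 CPM in DF, 211, 232 and 214 CPM in TF, and 247 and 219 CPM in TFD. Its ranges in the mutant genotypes overlapped, with log2 fold changes of 0.98 ± 0.11, 0.90 ± 0.11 and 0.99 ± 0.12 (adjusted p = 3.2e-05, 6.88e-05 and 8.63e-05).

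Glb1 (chr9:114401078-114474379), the acid β-galactosidase that acts on ganglioside GM1 and keratan sulfate, was at 20.1, 19.4 and 22.7 CPM in WT, 44.5, 35.8 and 39.9 CPM in DF, 42.2, 41.6 and 32.8 CPM in TF, and 43.1 and 34.5 CPM in TFD. The mutant libraries did not overlap with WT, and the log2 fold changes were 0.95 ± 0.14, 0.91 ± 0.14 and 0.90 ± 0.15 (adjusted p = 0.000254, 0.000438 and 0.00102). Arsa, the sulfatase that removes sulfate from sulfatide, rose by 0.88, 0.77 and 0.94, and Asah1, acid ceramidase, by 0.96, 0.84 and 0.72. Smpd1, acid sphingomyelinase, rose by 0.36 in DF and 0.35 in TF, and was at 0.27 in TFD (adjusted p = 0.104). Both calls of Smpd1 were lost without WT replicate 1, without WT replicate 3 and without the high-Xist libraries. They were also lost without DF replicate 1 or 3 in DF and without TF replicate 1 or 2 in TF, and the adjusted p reached 0.0886 and 0.0907. Galc, which removes galactose from galactosylceramide, was at -0.02, -0.40 and 0.03 (adjusted p = 0.951, 0.078 and 0.921). Neu1, the lysosomal sialidase, was at 0.31, -0.08 and -0.07 (adjusted p = 0.0695, 0.664 and 0.75).

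Gla, the X-linked α-galactosidase A that acts on globotriaosylceramide, was at 46.9, 43.8 and 42.3 CPM in WT, 43.7, 46.5 and 48.0 CPM in DF, 44.2, 41.7 and 41.2 CPM in TF, and 46.0 and 55.9 CPM in TFD. The groups overlapped, with TFD replicate 2 the highest library. The 95% interval of its log2 fold change was -0.17 to 0.28 in DF, -0.29 to 0.16 in TF and -0.05 to 0.45 in TFD, which leaves out a 2-fold difference in each.

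The glycosaminoglycan class had a median log2 fold change of 0.58 in DF, 0.42 in TF and 0.77 in TFD, and 4 of its 7 members rose in each mutant genotype: Sgsh, Naglu, Ids and Gusb. Galns and Idua were called in DF and in no other comparison with WT, and Arsb in none. With only 7 members, single genes set the median. In TF and TFD the median gene was Arsb, whose level in TF replicate 3 and TFD replicate 2 stood apart from the other libraries. With a term for sex, the TFD median was 0.51.

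Sgsh (chr11:119343489-119355510) and Naglu (chr11:101070094-101077671) encode N-sulfoglucosamine sulfohydrolase and α-N-acetylglucosaminidase, enzymes of heparan sulfate breakdown whose loss causes Sanfilippo syndromes. Exons of Sgsh share 22.1% of their bases with Card14 on the opposite strand in the GENCODE M21 annotation. Sgsh was at 11.9, 8.29 and 13.6 CPM in WT, 29, 28 and 31.2 CPM in DF, 31.4, 30.9 and 19.1 CPM in TF, and 30.5 and 21.8 CPM in TFD. Naglu was at 9.03, 8.17 and 7.43 CPM in WT, 23.3, 17.4 and 17.4 CPM in DF, 21, 20.3 and 14 CPM in TF, and 22.5 and 18.6 CPM in TFD. Both were low per length and lay above WT in every mutant library, with TF replicate 3 the lowest of the mutants for each. The log2 fold changes of Sgsh were 1.37 ± 0.22, 1.26 ± 0.22 and 1.21 ± 0.24 (adjusted p = 0.000432, 0.000984 and 0.00259). Those of Naglu were 1.23 ± 0.19, 1.17 ± 0.19 and 1.33 ± 0.20 (adjusted p = 0.000338, 0.00065 and 0.000574).

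Ids (chrX:70343070-70365085), the X-linked iduronate sulfatase of heparan and dermatan sulfate breakdown, was at 33.3, 43.2 and 35.1 CPM in WT, 60.2, 49.7 and 53.8 CPM in DF, 65.5, 45.3 and 71.0 CPM in TF, and 59.8 and 73.3 CPM in TFD. Every mutant library lay above WT, with TF replicate 2 the nearest to the highest WT library. Log2 fold changes were 0.56 ± 0.17, 0.71 ± 0.17 and 0.84 ± 0.18 (adjusted p = 0.0197, 0.00608 and 0.0048). The call in DF was lost without WT replicate 1, WT replicate 3 or DF replicate 1 (adjusted p up to 0.0889), and that in TFD with the low-Xist libraries alone (adjusted p = 0.0522). Gusb (chr5:129989021-130002828), the β-glucuronidase, was at 78.1, 71.8 and 73.2 CPM in WT, 116, 117 and 101 CPM in DF, 101, 97.3 and 95.9 CPM in TF, and 105 and 107 CPM in TFD. It rose in all mutants by a small and even amount, at 0.58 ± 0.09, 0.40 ± 0.09 and 0.51 ± 0.10 (adjusted p = 0.000413, 0.00562 and 0.00292).

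Arsb encodes the sulfatase that acts on dermatan sulfate, and was chosen for display after its values were seen. Its level was 69.5, 90.0 and 71.0 CPM in WT, 81.6, 78.2 and 84.0 CPM in DF, 76.2, 73.9 and 157 CPM in TF, and 75.1 and 187 CPM in TFD. TF replicate 3 and TFD replicate 2 were both more than 60 CPM above any other library, while WT replicate 3, the remaining library with high Xist, was within the range of the rest. The fold change was therefore imprecise, at 0.42 ± 0.31 in TF and 0.77 ± 0.35 in TFD (adjusted p = 0.324 and 0.123). Over the low-Xist libraries alone it was -0.09 in TF and -0.08 in TFD. Galns, the sulfatase of keratan sulfate and chondroitin 6-sulfate, rose by 0.67 ± 0.18 in DF (adjusted p = 0.0119), a call lost without WT replicate 3 (adjusted p = 0.0605), and its values in TFD were 90.6 and 49.9 CPM. Idua, the iduronidase, passed the test in DF, at 0.35 ± 0.13 (adjusted p = 0.0486), but that call was lost in 17 of the alternatives, among them leaving out any WT or DF library or all high-Xist libraries, with an adjusted p of up to 0.191.

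**Figure D4:**
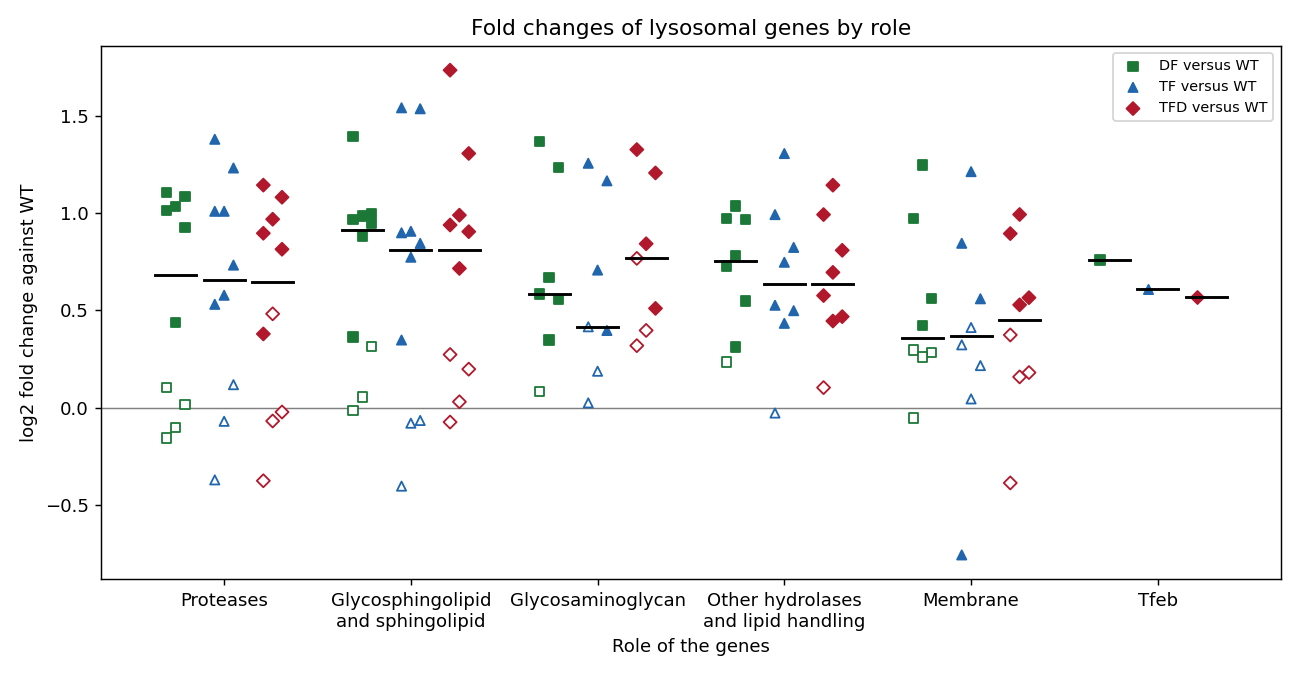
Log2 fold changes against WT of lysosomal genes by role in DF, TF and TFD. Each point is a gene, filled where the adjusted p was under 0.05, and black bars are class medians. The glycosphingolipid and sphingolipid class has medians of 0.91, 0.81 and 0.81, and membrane proteins have medians of 0.36, 0.37 and 0.45.

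Set side by side, the medians of glycosphingolipid enzymes, proteases and glycosaminoglycan enzymes were 0.91, 0.68 and 0.58 in DF, 0.81, 0.66 and 0.42 in TF, and 0.81, 0.65 and 0.77 in TFD. In each genotype, the range within every one of these classes was wider than the differences between class medians. Within proteases the range was -0.15 to 1.11 in DF, within glycosphingolipid enzymes -0.02 to 1.39, and within glycosaminoglycan enzymes 0.08 to 1.37. In TFD the ranges were -0.37 to 1.14, -0.07 to 1.73 and 0.32 to 1.33 in the same order. No test of the classes was made.

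Of the other hydrolases and lipid-handling proteins, 7 of 8 rose in each mutant genotype, with medians of 0.75, 0.64 and 0.64. Npc2 (chr12:84754559-84773112), the soluble carrier that passes cholesterol to Npc1 in the lysosomal membrane, was at 145, 155 and 151 CPM in WT, 310, 282 and 290 CPM in DF, 394, 374 and 347 CPM in TF, and 315 and 350 CPM in TFD. It had the smallest p of the 44 in TF, where it rose by 1.31 ± 0.10 (adjusted p = 2.2e-06), and it rose by 0.97 ± 0.10 in DF and 1.14 ± 0.10 in TFD (adjusted p = 1.92e-05 and 1.54e-05). Lipa (chr19:34492316-34527474), the acid lipase of cholesteryl esters and triglycerides, was at 54.9, 54.0 and 63.4 CPM in WT, 109, 116 and 128 CPM in DF, 117, 103 and 123 CPM in TF, and 127 and 102 CPM in TFD. Manba (chr3:135485611-135571403), the β-mannosidase, was at 36.5, 40.2 and 37.8 CPM in WT, 74.1, 73.0 and 77.6 CPM in DF, 68.5, 71.8 and 62.1 CPM in TF, and 56.9 and 66.7 CPM in TFD. For Npc2, Lipa and Manba, the mutant libraries lay above WT without overlap. Lipa rose by 1.04, 0.99 and 0.99 and Manba by 0.97, 0.82 and 0.70, with adjusted p between 4.95e-05 and 0.000202 for Lipa and between 2.71e-05 and 0.000758 for Manba.

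Man2b1, the α-mannosidase, rose by 0.78, 0.75 and 0.81, and Ppt1, the palmitoyl-protein thioesterase, by 0.73, 0.53 and 0.47. Gaa, the acid α-glucosidase of glycogen, rose by 0.55, 0.43 and 0.58. The membrane partner Npc1 rose by 0.31, 0.50 and 0.45, less than Npc2 in each genotype. Acp2, an acid phosphatase, was at 0.24, -0.03 and 0.10 (adjusted p = 0.149, 0.887 and 0.616), and its exons share 13.8% of their bases with Ddb2 on the opposite strand. Some of these calls rested on single libraries. That of Npc1 in DF was lost in 14 alternatives, among them leaving out WT replicate 2 or 3, any DF library or all high-Xist libraries (adjusted p up to 0.211). In TFD, Npc1 was lost without WT replicate 2, WT replicate 3, TFD replicate 1 or all high-Xist libraries and when only TFD and WT were fitted (up to 0.0904), and Gaa and Ppt1 without TFD replicate 1 (adjusted p = 0.173 and 0.077), where Gaa was at 0.35. Gaa in TF was lost without WT replicate 1 or 2 or any TF library (up to 0.101).

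Membrane proteins had the lowest medians of the classes, at 0.36 and 0.37 in DF and TF and 0.45 in TFD, and 3 of 8 rose in each genotype: Cd68, Lamp1 and Scarb2. Cd68 (chr11:69664213-69666170) encodes a sialomucin of late endosomes that is also a common marker of monocytes and macrophages. It was at 31.7, 19.2 and 20.7 CPM in WT, 61.4, 54.4 and 55.0 CPM in DF, 56.6, 54.9 and 55.4 CPM in TF, and 53.3 and 42.0 CPM in TFD. Lamp1 (chr8:13159135-13175338), the abundant glycoprotein whose promoter stretch with 4 motif matches is given above, was at 271, 239 and 260 CPM in WT, 501, 498 and 513 CPM in DF, 468, 484 and 433 CPM in TF, and 480 and 476 CPM in TFD. Both were separate from WT, and Lamp1 varied little within a genotype. Cd68 rose by 1.25 ± 0.17, 1.21 ± 0.17 and 0.99 ± 0.18 (adjusted p = 0.000131, 0.000199 and 0.00174). Lamp1 rose by 0.97 ± 0.10, 0.84 ± 0.10 and 0.89 ± 0.11 (adjusted p = 2.31e-05, 6.4e-05 and 0.000104), and its exons share 249 bases with Grtp1 on the opposite strand in GENCODE M21.

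Scarb2 (chr5:92443873-92505608), the membrane receptor that carries glucocerebrosidase to lysosomes, was at 70.4, 77.7 and 80.7 CPM in WT, 102, 109 and 95.3 CPM in DF, 120, 105 and 112 CPM in TF, and 90.6 and 130 CPM in TFD. Its groups did not overlap with WT, and the log2 fold changes were 0.42, 0.56 and 0.53 (adjusted p = 0.0211, 0.00528 and 0.0156). In DF that call was lost without WT replicate 1 or DF replicate 1 or 2 and with scaling by library totals (adjusted p up to 0.0999), and in TFD without WT replicate 1, TFD replicate 2 or all high-Xist libraries (up to 0.196). The value in TFD was 0.25 without TFD replicate 2 and 0.29 over the low-Xist libraries. Lamp2 (chrX:38401357-38456460), X-linked and required for the fusion of autophagosomes with lysosomes, was at 331, 418 and 376 CPM in WT, 499, 577 and 583 CPM in DF, 453, 429 and 424 CPM in TF, and 399 and 437 CPM in TFD. It rose in DF by 0.56 ± 0.12 (adjusted p = 0.00253), whereas TF lay only just above WT and TFD overlapped with it (0.22 and 0.16, adjusted p = 0.165 and 0.397). Laptm5, a lysosomal membrane protein of blood cells, rose in TFD, at 0.57 ± 0.15 (adjusted p = 0.0173), and was at 0.26 in DF and 0.32 in TF. The call in TFD was lost without WT replicate 2, WT replicate 3, TFD replicate 2 or all high-Xist libraries, and over the low-Xist libraries it was 0.35 (adjusted p = 0.203). Mcoln1, the calcium channel of the lysosome, was at 0.30, 0.41 and 0.37 (adjusted p = 0.14, 0.0503 and 0.118), and Cln3 at 0.28, 0.05 and 0.18 (adjusted p = 0.146, 0.834 and 0.447).

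Cd63 (chr10:128908919-128912818), a tetraspanin of late endosomes, lysosome-related granules and exosomes, was the 1 member that fell. It was at 57.7, 85.9 and 63.3 CPM in WT, 62.9, 66.7 and 69.6 CPM in DF, 42.2, 44.5 and 35.6 CPM in TF, and 58 and 47.2 CPM in TFD. All TF libraries lay below every other library, DF lay within the range of WT, TFD replicate 1 was level with the lowest WT library and TFD replicate 2 was below it. The log2 fold change was -0.75 ± 0.15 in TF (adjusted p = 0.00225), -0.05 ± 0.15 in DF (adjusted p = 0.8) and -0.39 ± 0.17 in TFD (adjusted p = 0.11). Markers of basophils and mast cells, cells whose granules carry Cd63, had median log2 fold changes of -0.20 in DF, -0.95 in TF and -0.56 in TFD. Of 5 such markers tested, 3 were lower in TF and 0 in DF or TFD, at a summed 232 to 281 CPM in WT, 193 to 313 CPM in DF, 126 to 202 CPM in TF and 145 to 304 CPM in TFD. Maturing neutrophil markers had medians of 0.05, -0.66 and -0.69, and 0, 4 and 1 of 10 were lower. The part of these cells in the level of Cd63 was not tested.

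Tfeb (chr17:47737037-47792416) was at 29.1, 23.0 and 25.2 CPM in WT, 45.6, 41.1 and 44.2 CPM in DF, 39.1, 41.8 and 37.4 CPM in TF, and 45.5 and 30.9 CPM in TFD. All mutant libraries were above WT, TFD replicate 2 by the least. Tfeb rose by 0.76 ± 0.14 in DF, 0.61 ± 0.14 in TF and 0.57 ± 0.16 in TFD (adjusted p = 0.00134, 0.00575 and 0.0178). In TFD the call was lost without WT replicate 2, WT replicate 3 or TFD replicate 1, and without the last it was 0.26 (adjusted p = 0.284). These are transcript levels. Tfeb activity is set largely by where the protein is in the cell, which was not measured.

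Direct comparisons between mutant genotypes separated few members. In DF versus TF, 1 member was higher (1.67% of all genes) and 1 was lower (4.27%). Neither difference reached 2-fold, which 0.271% of all genes did upward and 2.99% downward. Cd63 stood above its TF level in DF by 0.70 ± 0.15 (adjusted p = 0.0188), and Gm2a in DF stood at -0.54 on the log2 scale against TF (SE 0.12, adjusted p = 0.0199). Both calls were lost without DF replicate 2, DF replicate 3 or TF replicate 3, and that of Gm2a also without TF replicate 1. The values without these libraries kept their direction, and the adjusted p reached 0.0831 for Cd63 and 0.0946 for Gm2a. For Cd63 the call was lost over the low-Xist libraries as well (adjusted p = 0.0516). Galns at 0.64 (95% interval 0.25 to 1.03, adjusted p = 0.0564), Lgmn at -0.56 (-0.90 to -0.22, adjusted p = 0.0578) and Npc2 at -0.34 (-0.54 to -0.13, adjusted p = 0.0559) came nearest to the threshold. Over all genes in DF versus TF, 28.1% of calls were higher in DF, and this share was 13.9% with library totals alone and 43.1% with an offset for gene length.

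In DF versus TFD, 0 members were called in edgeR or in DESeq2. Over all genes, edgeR called 0 (0%), DESeq2 called 103 higher and 155 lower, and 7 members had an unadjusted p under 0.05 (14.2% of all genes). In TF versus TFD, 0 members were called by either tool. Over all genes, edgeR called 0.00821% in each direction, DESeq2 called 109 higher in TF and 22 lower, and 3 members had an unadjusted p under 0.05 (8.77% of all genes). Without TFD replicate 1, which left 1 TFD library, some members were called higher in DF than in TFD. The share of all genes called in that fit is not given here. Fold changes of the 44 ran from -0.68 to 0.40 on the log2 scale in DF versus TFD and from -0.43 to 0.24 in TF versus TFD. For Ctss the difference between TF and TFD was 0.24 (95% interval -0.07 to 0.54), and for Lamp1 -0.05 (-0.29 to 0.19).

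Genes of the pathway outside the list were counted in the same fit. Their counts are to be read against the 21%, 19% and 14.7% of all genes called higher and the 16.6%, 15.6% and 11.6% called lower in DF, TF and TFD. The first list joins other lysosomal hydrolases with the proteins that modify and sort them. Of its 30 genes, 20 rose and 5 fell in DF, 19 and 3 in TF, and 16 and 4 in TFD. Its called genes with the largest change, by mean size over the comparisons, fell: Acp5, the tartrate-resistant acid phosphatase, by 2.56, 1.62 and 2.0 on the log2 scale, and Ctsk, cathepsin K, by 2.4, 1.64 and 1.68. Both are secreted by osteoclasts as part of bone resorption, and both belong to the list of 7 osteoclast markers, of which only 3 were tested. Of these 3, 2 were lower in each genotype and 0 were higher, and the third was not called, at 0.19, -0.39 and -0.37. Of 26 other membrane proteins tested, 16, 14 and 13 rose and 1, 2 and 2 fell. Tmem192 rose by 0.75, 0.99 and 0.81, and Cln8 by 0.71, 0.82 and 0.95.

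The V-ATPase acidifies the lysosome, and the median log2 fold change of its genes was 0.35, 0.15 and 0.12 in the 3 comparisons, below the 0.58, 0.51 and 0.48 of the other hydrolases and sorting proteins. Of its 17 subunit genes tested, 9 rose and 1 fell in DF, 6 rose and 1 fell in TF, and 4 rose and 0 fell in TFD. Atp6v0b rose by 0.57, 0.44 and 0.56, and Tcirg1, the a3 subunit, by 0.54, 0.33 and 0.46. Of 16 MiT/TFE factors and parts of their nutrient sensor, 5, 5 and 3 rose and 2, 1 and 1 fell. Tfec, a macrophage relative of Tfeb, rose by 1.24, 0.83 and 0.75, whereas Rragd, a Rag GTPase of the nutrient sensor, fell by 1.55, 1.2 and 1.02. Of 10 inhibitors of cathepsins tested, 4, 4 and 2 rose and 3, 1 and 3 fell. Cst3, cystatin C, rose by 1.22 ± 0.14, 1.78 ± 0.14 and 1.45 ± 0.15 (adjusted p = 4.19e-05, 3.53e-06 and 3.29e-05), at 177 CPM in WT (SD 2.9, n = 3) and 607 CPM in TF (SD 54, n = 3). BC100530, a stefin A gene with near-identical copies, so that its counts are uncertain, fell by 1.31, 1.57 and 2.31.

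Cell type markers also differed between the mutants and WT, in directions that depended on the cell type. Of 10 monocyte markers, 8 were higher in DF, 9 in TF and 7 in TFD, and 0 were lower in any, with median log2 fold changes of 1.51, 1.53 and 1.51. Summed, they ranged from 1988 to 2075 CPM in WT, 6036 to 6782 CPM in DF, 5610 to 7023 CPM in TF and 5880 to 5921 CPM in TFD. Csf1r, the receptor for the monocyte growth factor CSF-1, rose by 1.21, 1.31 and 1.48, and Ccr2, the chemokine receptor of classical monocytes, by 2.47, 2.61 and 2.35. The medians of the lysosomal genes were smaller than those of the monocyte markers in all 3 comparisons. Of 12 tissue macrophage markers, 1, 2 and 2 were higher and 9, 4 and 6 were lower. All 10 B cell markers were lower in each genotype, at a summed 556 to 708 CPM in WT and 16.1 to 92.6 CPM in the mutant libraries, and Pax5, Vpreb1, Igll1 and Rag1 were at 0 in at least 1 library. Of 8 erythroid markers tested, 8, 6 and 6 were lower. The part of monocyte, B cell and erythroid content in the lysosomal levels was not tested.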

How the data were processed

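Whole BM RNA was depleted of globin transcripts and sequenced with a stranded total RNA kit. The authors ran FastQC, mapped reads to mm10 (STAR), assigned those that mapped uniquely to refGene genes (featureCounts) and kept genes above 0.5 CPM in more than 3 samples. Tool versions and the strand setting are not given in the sources used here. The deposited table holds raw counts per gene with exon coordinates and lengths, and log2 CPM values that the authors deposited beside them.

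Here, genes above 0.5 CPM in more than 3 of 11 libraries were kept (12175 of 12199). CPM were scaled by TMM factors (0.924 to 1.04), and RPKM used the exon length of the file. The 4 genotypes were fitted together by edgeR 4.0.16 (quasi-likelihood F test, R 4.3.3), with Benjamini-Hochberg adjustment over all genes tested and a threshold of 0.05. The study used DESeq2, which served here as an alternative (version 1.42.0). Other alternatives were RLE factors, library totals, no filter, only the groups compared, a replicate block, a term for sex, a length offset, a 2-fold minimum and leaving out each library. The low-Xist alternative was added after seeing the data. The procedure was tested on simulated data.

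The members and all gene lists were chosen with earlier results of these data known. Library values are given for the 4 members (glycosphingolipid enzymes, glycosaminoglycan enzymes, proteases) or 3 members (other classes) with the largest mean absolute change among those called, for Tfeb, for X-linked members, for members called between mutants, and for 2 genes chosen after their values were seen (Ctsd and Arsb). From each pathway list, the 2 genes with the largest mean absolute change among those called in at least 1 comparison with WT were named. Other marker lists counted were maturing neutrophils (0, 0 and 0 of 10 higher and 0, 4 and 1 lower in DF, TF and TFD), T cells (0, 0 and 0 of 7 higher and 5, 2 and 4 lower), megakaryocytes and platelets (0, 0 and 1 of 7 higher and 3, 0 and 0 lower), basophils and mast cells (0 of 5 higher and 0, 3 and 0 lower), plasmacytoid dendritic cells (0, 2 and 0 of 5 higher and 3, 0 and 2 lower) and stromal and endothelial cells (1, 1 and 1 of 7 higher and 1, 0 and 0 lower).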

Additional observations from a re-analysis of the deposited data

Results flagged for a closer look

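By the direct test of DF versus TF, 2 of 44 members differed. Called higher in DF were 1 member and 1.67% of all genes, and called lower were 1 member and 4.27%. Both calls were lost without DF replicate 2, DF replicate 3 or TF replicate 3. Gm2a was higher than WT in both genotypes and by more in TF, with a log2 difference of -0.54 between DF and TF. Cd63 fell in TF and was near WT in DF, with a log2 difference of 0.70.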

How the results depend on the processing

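Of 89 fold changes against WT that passed the test, 0 changed sign under any alternative. Apart from the 2-fold minimum, a stricter rule counted on its own, 72 stayed past the threshold in all alternatives and 17 lost it in at least 1, as named in the report. Some members not called against WT as reported were called in at least 1 alternative: Acp2 and Neu1 in DF, Ctsd, Galc, Laptm5 and Mcoln1 in TF, and Arsb, Ctsd, Galns, Idua and Lgmn in TFD. Leaving out 1 library gave 26 to 32 members higher in DF, 27 to 29 in TF and 24 to 30 in TFD. With TFD down to 1 library, that library is assumed to vary like the other groups. Shares of all genes called are not given for the fits without single libraries or with the replicate block. The lowest count behind a member was 66 reads (Naglu). A 2-fold minimum left 9 members higher in DF, 10 in TF and 7 in TFD, 0 lower in TF, and 0 higher and 0 lower in DF versus TF. Members lower in TF numbered 2 with DESeq2, RLE factors, the term for sex, low-Xist libraries and the length offset, 3 with only the groups compared, and 1 to 2 without single libraries. In TFD they numbered 1 with DESeq2 and the length offset, and 0 to 1 without single libraries. In DF versus TF, 2 members were higher with DESeq2, 3 with only the groups compared and 3 with the length offset, 0 to 3 without single libraries. Members lower there numbered 3 with DESeq2, RLE factors or library totals, and 0 to 2 without single libraries. In DF versus TFD, 0 to 2 were higher without single libraries. The glycosaminoglycan median in TFD was 0.51 with the sex term and 0.69 to 0.94 without single libraries, and 0.38 to 0.60 in TF. The glycosphingolipid median in TFD was 0.69 to 0.91. The cause was not tested.

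Values that did not pass the test as reported changed sign under some alternatives. Of these, Arsb in TFD passed it without TFD replicate 1 or TF replicate 3, and Galns in TFD without TFD replicate 2 and with low-Xist libraries. Lgmn in DF was -0.029 with DESeq2 and -0.028 with RLE factors. With library totals, Lgmn was -0.068 in DF, Gla was -0.033 in DF and Arsb was -0.00054 in DF. With only the groups compared, Lgmn was -0.019 in DF. With low-Xist libraries, Lgmn was -0.023 in DF, Gla was -0.016 in DF, Arsb was -0.0063 in DF, Ctsl was -0.18 in TF, Arsb was -0.089 in TF, Ctsl was 0.065 in TFD, Galc was -0.16 in TFD, Neu1 was 0.074 in TFD and Arsb was -0.083 in TFD. With the length offset, Lgmn was -0.033 in DF, Galc was 0.056 in DF, Galns was -0.0091 in TF and Acp2 was 0.018 in TF. Without single libraries, the ranges in DF were -0.090 to 0.12 for Lgmn, -0.015 to 0.073 for Gla, -0.22 to 0.12 for Galc, -0.020 to 0.21 for Arsb and -0.20 to 0.13 for Cd63. Without single libraries, the ranges in TF were -0.14 to 0.24 for Ctsl, -0.18 to 0.038 for Tpp1, -0.081 to 0.12 for Galns, -0.032 to 0.60 for Arsb and -0.078 to 0.14 for Cln3. Without single libraries, the ranges in TFD were -0.16 to 0.10 for Ctsl, -0.16 to 0.0087 for Tpp1, -0.13 to 0.19 for Galc, -0.35 to 0.16 for Neu1, -0.18 to 0.69 for Galns, -0.025 to 1.28 for Arsb and -0.055 to 0.25 for Acp2.

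Whether replicate numbers pair the libraries was not settled. Over 15 same-numbered pairs the correlation of deviations from group means ran from -0.30 to 0.25, above 0.1 in 3. With 2 or 3 libraries in a genotype, such deviations depend on each other, so these correlations cannot exclude pairing. With a replicate block, 30 members were higher in DF, 30 in TF and 28 in TFD, 1 was lower in TF, and Ctsl in TFD was 0.047.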

Other observations

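Genes that modify and deliver lysosomal hydrolases were also measured, and are named here after their values were seen. Sumf1, which activates the lysosomal sulfatases by modifying a cysteine in their active site, rose by 0.99 ± 0.12 in DF, 1.08 ± 0.12 in TF and 0.99 ± 0.13 in TFD on the log2 scale (edgeR adjusted p = 5.84e-05, 3.89e-05 and 0.000172). It ranged from 18.1 to 21.5 CPM in WT and from 37.7 to 48.2 CPM in the 8 mutant libraries, without overlap. Gnptab, the phosphotransferase that starts the mannose 6-phosphate tag, rose by 0.41, 0.49 and 0.51, and Nagpa, which uncovers the tag, by 0.87, 0.75 and 0.91.

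The mannose 6-phosphate receptors that carry tagged hydrolases moved in opposite directions. M6pr, the cation-dependent receptor, rose by 0.60 ± 0.11, 0.45 ± 0.11 and 0.45 ± 0.13 (edgeR adjusted p = 0.00138, 0.00932 and 0.0193), at 184 to 218 CPM in WT and 243 to 322 CPM in the mutants. Igf2r, the cation-independent receptor, fell by 0.66 ± 0.20, 1.05 ± 0.20 and 0.80 ± 0.23 (adjusted p = 0.0195, 0.0017 and 0.0199), at 120 to 141 CPM in WT and 56.3 to 110 CPM in the mutants. For each receptor the mutant libraries did not overlap with WT.

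Per length, Psap led the 44 members in each genotype, at 312 RPKM in WT (SD 19.1, n = 3) and 1038 RPKM in TFD (SD 109, n = 2). Ctsd came next in WT at 249 RPKM (SD 11.7, n = 3), whereas Ctss came next in DF, TF and TFD, at 319, 385 and 328 RPKM. Lamp1 and Ctsd were within their spread of each other in DF, at 224 RPKM each.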
